A study of Mus musculus with 6 samples.

Results

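The chromatin regulators described here are the histone deacetylases, sirtuins, Smarc and Chd remodellers, Polycomb and other Cbx proteins, high mobility group proteins and de novo DNA methylation genes of the mouse, with Ctcf. They were chosen by gene symbol alone, as the probes named Hdac, Sirt, Smarc, Chd, Cbx, Hmga, Hmgb, Hmgn, Ezh or Dnmt3 with a member number or letter, plus Suz12, Eed, Bmi1, Tet1, Hells and Ctcf. The rule took 87 of the 25697 probes on the array, which stand for 60 of its 18138 gene symbols. The rule uses no measured value.

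RNA was from whole lungs of male pups 6 days after birth, of strain FVB by the labels and FVB/N by the study's methods, with 3 hSRY-ON and 3 hSRY-OFF mice and 1 Illumina MouseRef-8 BeadChip per mouse. Both groups are named for the Signalox-hSRY transgene, a single copy at the H11 locus in which the widely active CAG promoter drives DsRed2 until Cre removes it and then drives FLAG-tagged human SRY with EGFP. In hSRY-ON mice, Cre inherited through the oocyte of a Ddx4-Cre mother had recombined the transgene at the start of development, and the animals chosen for the arrays did not themselves carry Ddx4-Cre. The hSRY-OFF label stands for mice whose transgene was not recombined. The study also uses the word controls for its comparison mice, so that these 3 mice held the transgene rests on the label. By design SRY is active throughout the body from the earliest stage, in 1 transgenic line, so this is not a lung-specific model. The level of the transgene itself was not analysed here.

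DNA in the nucleus is wound around histones, and the genes described here set how tightly it is packed. Histone deacetylases and sirtuins remove acetyl groups from histones and other proteins, while SWI/SNF, ISWI and Chd complexes use ATP to slide or eject nucleosomes. Polycomb complexes place and read repressive marks on histones, HP1 proteins bind heterochromatin, high mobility group proteins bend DNA or bind nucleosomes, and the Dnmt3 proteins set new DNA methylation. In the developing lung, class I histone deacetylases and Ezh2 are known for roles in epithelial progenitors, and many of these genes are more abundant in dividing cells.

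Between 13191 and 14134 probes were detected per array, and 59 to 66 of the 87 chromatin probes. The lung label was checked against defining markers, and Sftpc, Ager and Scgb1a1 were detected on all arrays. Marker lists of cell types and of dividing cells differed between the groups on the same arrays, as the plot of marker lists by array shows. Of the 18 tested genes for dividing cells, 14 fell and 0 rose in hSRY-ON lungs, with a median change of -1.29 on the log2 scale. The mean log2 level of that list was 9.98, 9.65 and 9.75 in the hSRY-OFF lungs and 8.25, 8.37 and 9.16 in the hSRY-ON lungs. The groups did not overlap, and hSRY-ON replicate 3 stood between the other hSRY-ON lungs and the hSRY-OFF lungs. The other markers of dividing cells, Mki67, Ccna2, Ccnb2, Bub1, Aurkb and Ube2c, had no tested probe.

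**Figure D1:**
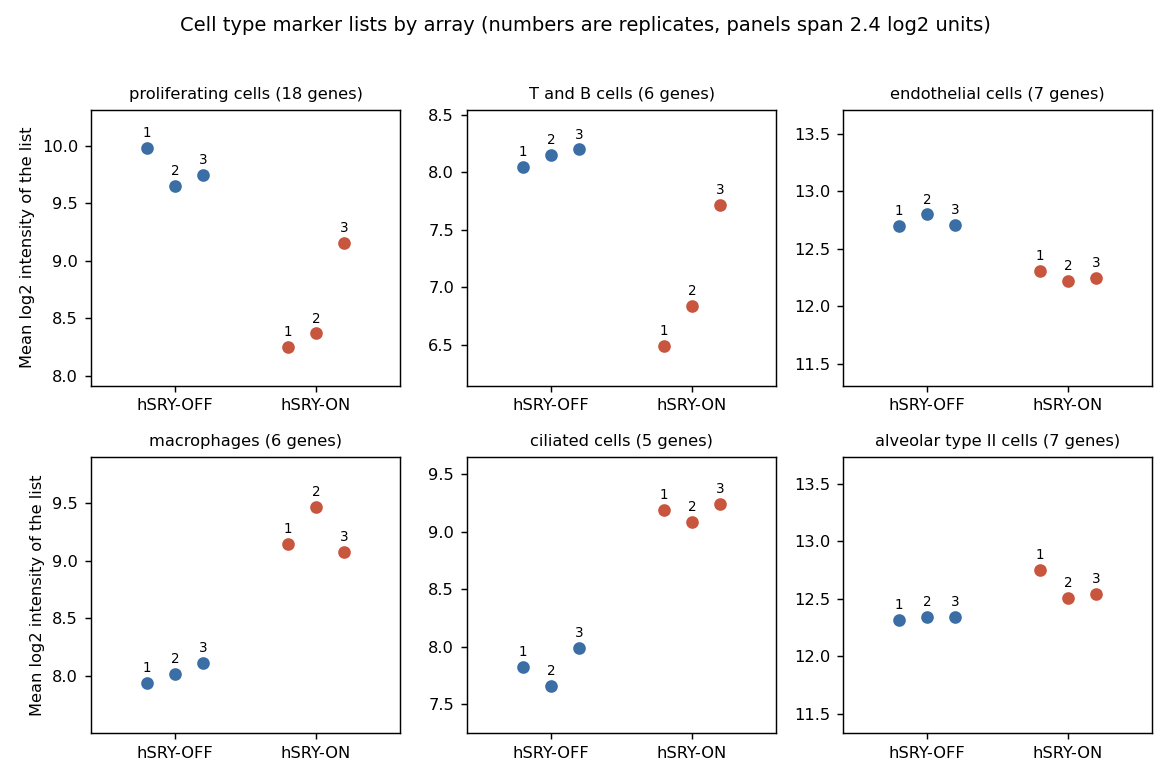
Mean log2 intensity of 6 cell type marker lists (vertical axis) in each of the 3 hSRY-OFF and 3 hSRY-ON lungs (horizontal axis), each point being 1 array with its replicate number and every panel spanning 2.4 log2 units. The lists of dividing cells, T and B cells and endothelial cells are lower on all hSRY-ON arrays, with hSRY-ON replicate 3 the highest of its group in the first 2, and those of macrophages, ciliated and alveolar type II cells are higher.

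Of the 6 tested T and B cell genes, 4 fell (mean level 8.05 to 8.20 in hSRY-OFF and 6.49 to 7.72 in hSRY-ON lungs), as did 3 of 7 endothelial genes (12.70 to 12.80 against 12.22 to 12.31) and 1 of 2 tested thymocyte genes (6.62 to 7.18 against 5.35 to 6.02), while the thymocyte-defining Rag1, Rag2 and Dntt had no tested probe. In the other direction, 4 of 6 macrophage genes (7.94 to 8.11 against 9.08 to 9.47), 4 of 5 ciliated cell genes (7.66 to 7.99 against 9.08 to 9.24), 3 of 4 neutrophil genes (8.98 to 9.28 against 9.65 to 12.16), 3 of 7 alveolar type II genes (12.32 to 12.34 against 12.51 to 12.75) and 2 of 4 club cell genes (11.94 to 12.10 against 13.33 to 13.36) rose. Fibroblast genes split with 1 of 6 higher and 1 lower, 1 of 5 cardiac genes rose, and none of 4 alveolar type I and none of 4 erythroid genes passed the limma test (0 and 1 at an unadjusted p under 0.05). The part of these shifts in the chromatin gene results was not tested. In whole-lung RNA, fewer cells of a type and less RNA per cell cannot be told apart.

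Of the 87 chromatin probes, 62 were detected on at least 3 arrays and were tested, for 48 genes. Of these, 15 probes of 12 genes fell and 4 probes of 4 genes rose in hSRY-ON lungs at an adjusted p under 0.05. That is 30.6% of the tested chromatin probes, where 26.9% of all 13841 tested probes were called. By direction, 24.2% of the chromatin probes fell against 13.3% of all tested probes, and 6.45% rose against 13.6%. The median change of the 62 probes was -0.29 on the log2 scale, against -0.03 over all tested probes, and 44 of them (71%) had a change below 0, against 53.2%. Their median absolute change of 0.32 equalled that of all tested probes.

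The fitted changes of the chromatin probes ran from -1.23 for a Dnmt3l probe, which was detected on 1 hSRY-ON array and had a change of -0.38 without background correction, to 1.29 for Cbx7. Over all tested probes they ran from -4.25 to 5.55. For 30 chromatin probes the hSRY-ON and hSRY-OFF values were fully apart (48.4%), as they were for 46.6% of all tested probes. The 15 probes that fell averaged 9.67, 9.56 and 9.51 in the hSRY-OFF lungs and 8.73, 8.68 and 8.93 in the hSRY-ON lungs. They were picked by their fall on these same arrays, so that gap follows from the choice. All 62 tested chromatin probes averaged 8.86, 8.83 and 8.78 in the hSRY-OFF lungs and 8.58, 8.56 and 8.61 in the hSRY-ON lungs. The counts of calls depended on single arrays, for the chromatin probes as over all tested probes. The number of probes that fell was 6, 7 and 8 without hSRY-OFF replicates 1, 2 and 3, and 17, 11 and 17 without hSRY-ON replicates 1, 2 and 3. The number that rose was 1, 2 and 1 without hSRY-OFF replicates 1, 2 and 3, and 3, 3 and 4 without hSRY-ON replicates 1, 2 and 3. No called probe reversed its direction under any of the 17 alternatives that tested it.

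**Figure D2:**
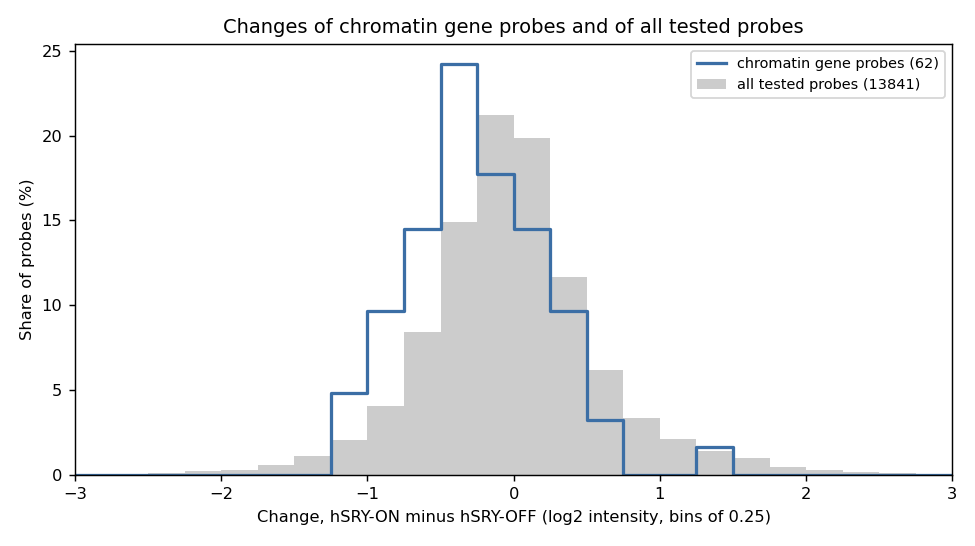
Share of probes in percent (vertical axis) in bins of 0.25 of the log2 change, hSRY-ON minus hSRY-OFF (horizontal axis, shown from -3 to 3), for the 62 tested chromatin probes (line) and all 13841 tested probes (grey). The line lies to the left of the grey distribution, with medians of -0.29 and -0.03.

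**Figure D3:**
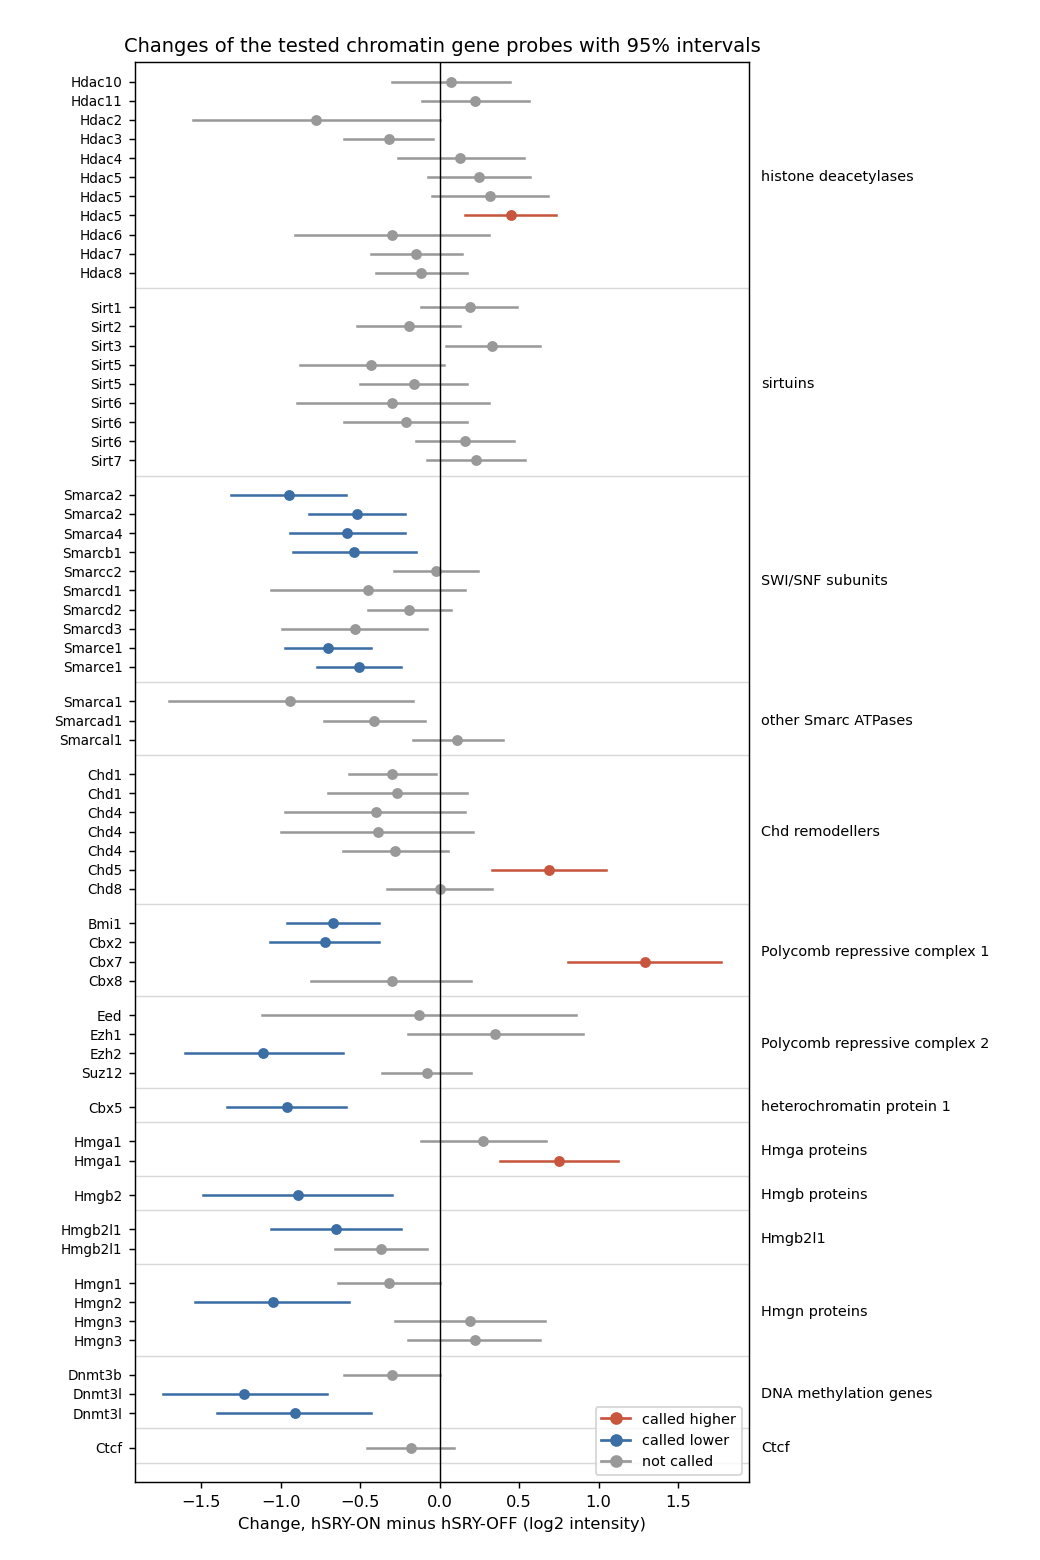
Change in log2 intensity, hSRY-ON minus hSRY-OFF (horizontal axis), of each of the 62 tested chromatin probes (1 row each, grouped by role), with its 95% confidence interval as a bar, 3 arrays per group. All 10 SWI/SNF probes have a change below 0, the 20 deacetylase and sirtuin probes lie on both sides of 0 with 10 on each, and Cbx7 has the largest change above 0 at 1.29.

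The deacetylases that work through zinc were nearly all without a call. Of 11 tested probes for 9 Hdac genes, 1 probe of Hdac5 rose and none fell, and the median change was 0.07. By comparison, 13.6% of all tested probes rose and 13.3% fell. Hdac5, a class IIa deacetylase that shuttles between cytoplasm and nucleus, had log2 levels of 10.26, 10.47 and 10.32 in the hSRY-OFF lungs and 10.90, 10.78 and 10.72 in the hSRY-ON lungs (probe ILMN_2659160). All hSRY-ON values lay above all hSRY-OFF values, and the level rose by 0.45 (SE 0.12, adjusted p = 0.0337 by limma). The 2 other tested Hdac5 probes had changes of 0.32 and 0.25 and did not pass the test (adjusted p = 0.168 and 0.211). The call was lost in 5 of the 6 fits without 1 array (adjusted p = 0.0552 to 0.128), the exception being the fit without hSRY-ON replicate 3 (0.0380).

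Hdac2, a class I enzyme of the Sin3 and NuRD complexes, was at 10.95, 10.93 and 11.21 in the hSRY-OFF lungs and at 11.07, 9.82 and 9.88 in the hSRY-ON lungs. The groups overlapped because hSRY-ON replicate 1 was as high as the hSRY-OFF lungs, while the other hSRY-ON lungs were lower. The change of -0.78 (SE 0.33) had an adjusted p of 0.122, and without hSRY-ON replicate 1 it was -1.18 with an adjusted p of 0.00337. Hdac3, the class I enzyme of the NCoR complexes, was at 10.48, 10.31 and 10.42 in the hSRY-OFF lungs and at 10.21, 10.01 and 10.04 in the hSRY-ON lungs. Its groups did not overlap, but the change of -0.32 (95% interval -0.60 to -0.04) had an adjusted p of 0.0881.

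The remaining tested Hdac genes had changes between -0.30 and 0.22 with adjusted p-values of 0.280 or more. They were Hdac8 (-0.12), the class IIa genes Hdac4 (0.13) and Hdac7 (-0.15), the tubulin deacetylase Hdac6 (-0.30), Hdac10 (0.07) and the class IV gene Hdac11 (0.22). Both Hdac9 probes were not detected on any array. Hdac1 was not analysed here under that symbol.

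The sirtuins, which use NAD as a cofactor, had no call in either direction among 9 tested probes for 6 genes, with a median change of -0.16. The share called over all tested probes was 26.9%. At an unadjusted p under 0.05 in limma there was 1 sirtuin probe, that of Sirt3, a mitochondrial deacetylase, with a change of 0.33 (SE 0.12, adjusted p = 0.0871). Sirt3 was at 8.84, 8.82 and 8.84 in the hSRY-OFF lungs and at 9.35, 9.11 and 9.04 in the hSRY-ON lungs. Those groups did not overlap, and the hSRY-OFF lungs were nearly equal.

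Sirt1, the best-known nuclear sirtuin, was at 9.26, 9.39 and 9.35 in the hSRY-OFF lungs and at 9.48, 9.70 and 9.37 in the hSRY-ON lungs. The value of hSRY-ON replicate 3 lay among the hSRY-OFF lungs, and the change was 0.19 (95% interval -0.12 to 0.49, adjusted p = 0.317). The other changes were -0.19 for Sirt2, -0.43 and -0.16 for the 2 probes of Sirt5, and 0.23 for Sirt7. The 3 probes of Sirt6 had changes of 0.16, -0.21 and -0.30, and Sirt6 was the exception among 11 genes with several tested probes, 10 of which had probes of 1 direction.

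SWI/SNF subunits held 6 of the 15 chromatin probes that fell, more than any other role. Of 10 tested probes for 8 subunit genes, those that fell stand for 4 genes and none rose, and all 10 changes were below 0, with a median of -0.53. The groups did not overlap for 8 of the 10 probes, as they did not for 46.6% of all tested probes. Smarca2 and Smarce1 hold 2 of these 8 probes each. The share of all tested probes that fell was 13.3%, as given above.

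Smarca2 encodes BRM, an ATPase that drives the SWI/SNF complex. Its probe ILMN_3075712 was at 8.96, 9.08 and 8.61 in the hSRY-OFF lungs and at 7.94, 7.83 and 8.03 in the hSRY-ON lungs. The lowest hSRY-OFF lung lay above the highest hSRY-ON lung, and the level fell by 0.95 on the log2 scale (SE 0.15, adjusted p = 0.00647), being 1.93-fold higher in hSRY-OFF. The other Smarca2 probe was at 13.11, 13.32 and 13.09 against 12.53, 12.68 and 12.75, again without overlap, and fell by 0.52 (SE 0.13, adjusted p = 0.0243).

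Smarca4 encodes BRG1, the alternative ATPase of the complex. It was at 8.79, 8.71 and 8.55 in the hSRY-OFF lungs and at 7.86, 8.12 and 8.33 in the hSRY-ON lungs. The groups did not overlap, hSRY-ON replicate 3 being the nearest to the hSRY-OFF lungs, and the level fell by 0.58 (SE 0.15, adjusted p = 0.0327).

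Smarce1, or BAF57, a subunit with a DNA-binding HMG domain, was at 11.40, 11.43 and 11.47 in the hSRY-OFF lungs and at 10.64, 10.70 and 10.85 in the hSRY-ON lungs (probe ILMN_2610600). The spread within each group was small beside the gap between them, with an SD of 0.03 in hSRY-OFF and 0.11 in hSRY-ON lungs (n = 3 each), and the level fell by 0.70 (SE 0.11, adjusted p = 0.00655). Its other probe, at 11.57, 11.69 and 11.73 against 11.13, 11.12 and 11.22, fell by 0.51 (SE 0.11, adjusted p = 0.0176).

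Smarcb1, a core subunit also called SNF5, was at 10.38, 10.06 and 10.42 in the hSRY-OFF lungs and at 9.65, 9.60 and 10.00 in the hSRY-ON lungs. The highest hSRY-ON lung lay just under the lowest hSRY-OFF lung, and the level fell by 0.54 (SE 0.16, adjusted p = 0.0479). This was the call nearest to the threshold, and 11 of the 17 alternatives lost it, among them each fit without 1 array except that without hSRY-ON replicate 3, with adjusted p-values up to 0.153. The calls of Smarca2 probe ILMN_3075712 and Smarce1 probe ILMN_2610600 were kept in all 17 alternatives, while that of Smarca4 was lost without any of the hSRY-OFF arrays (adjusted p = 0.119, 0.108 and 0.0623 without replicates 1, 2 and 3) and without hSRY-ON replicate 2 (0.0741). The call of the other Smarca2 probe was lost without any of these same arrays (adjusted p = 0.0760, 0.100, 0.0569 and 0.0535), and that of the other Smarce1 probe without hSRY-OFF replicate 1, 2 or 3 (0.0536, 0.0758 and 0.0674).

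The promoters of 3 of these genes are shown because the genes share a complex and each had a called fall, with capitals on each GC box (GGGCGG or its reverse complement) in the window from 250 bases before to 50 bases after the gene start. None of the 3 held a CCAAT box (CCAAT, either strand) or an E2F word (TTTCCCGC, TTTCGCGC, TTTGCCGC or TTTGGCGC, either strand). The sequences are from RefSeq, build GRCm38.p6, read 5′ to 3′ on the strand of the gene, at chr19:26604910-26605209 (plus strand) for Smarca2, chr9:21615919-21616218 (plus strand) for Smarca4 and chr10:75921565-75921864 (minus strand) for Smarcb1. The windows hold 2, 3 and 3 GC boxes.
Smarca2: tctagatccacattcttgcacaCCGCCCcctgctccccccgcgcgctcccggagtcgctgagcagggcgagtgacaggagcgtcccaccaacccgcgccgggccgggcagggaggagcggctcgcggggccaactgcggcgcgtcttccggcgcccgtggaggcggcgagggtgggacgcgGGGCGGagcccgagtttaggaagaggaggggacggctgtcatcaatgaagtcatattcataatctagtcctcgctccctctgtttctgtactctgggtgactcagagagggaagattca
Smarca4: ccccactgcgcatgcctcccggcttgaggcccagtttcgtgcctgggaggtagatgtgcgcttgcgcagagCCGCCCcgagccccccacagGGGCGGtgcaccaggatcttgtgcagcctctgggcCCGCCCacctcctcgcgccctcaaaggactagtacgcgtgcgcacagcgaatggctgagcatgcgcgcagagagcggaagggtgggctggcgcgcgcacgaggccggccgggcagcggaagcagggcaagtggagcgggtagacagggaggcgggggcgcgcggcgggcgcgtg
Smarcb1: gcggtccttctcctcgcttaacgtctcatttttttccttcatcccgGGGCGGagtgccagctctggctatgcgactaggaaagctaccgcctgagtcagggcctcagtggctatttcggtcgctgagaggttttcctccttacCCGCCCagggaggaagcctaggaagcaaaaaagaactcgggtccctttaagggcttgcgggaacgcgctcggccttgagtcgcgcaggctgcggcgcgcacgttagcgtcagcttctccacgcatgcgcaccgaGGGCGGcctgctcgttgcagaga

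The other 4 tested SWI/SNF genes did not pass the test. They were Smarcc2, or BAF170, with a change of -0.02 (95% interval -0.29 to 0.24, adjusted p = 0.890), and the BAF60 subunits Smarcd1 (-0.45, adjusted p = 0.234), Smarcd2 (-0.19, 0.234) and Smarcd3 (-0.53, 0.0795). Without hSRY-ON replicate 3, Smarcd3 had a change of -0.72 and passed (adjusted p = 0.0162). The Smarcd1 probe was detected on all 3 hSRY-OFF arrays and on 1 hSRY-ON array. Both probes of Smarcc1, the scaffold BAF155, were not detected on any array.

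Outside SWI/SNF, none of 3 tested Smarc genes passed the limma test, and 2 had an unadjusted p under 0.05. Smarca1, the ISWI ATPase SNF2L, was at 7.85, 8.25 and 8.62 in the hSRY-OFF lungs and at 7.94, 6.76 and 7.21 in the hSRY-ON lungs. The groups overlapped through hSRY-ON replicate 1, and the change of -0.94 (SE 0.32) had an adjusted p of 0.0716, or -1.26 and 0.0150 without that array. Smarcad1, a remodeller that helps restore heterochromatin after replication, had a change of -0.41 (adjusted p = 0.0617, or 0.0423 without hSRY-ON replicate 1), and Smarcal1, which acts at stalled replication forks, of 0.11 (adjusted p = 0.513).

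Of the Chd remodellers, 1 of 7 tested probes rose and none fell. That share of rises, 14.3%, is near the 13.6% of all tested probes. Chd5, a NuRD-type remodeller known from brain and testis, was at 5.43, 5.63 and 5.43 in the hSRY-OFF lungs and at 5.98, 6.44 and 6.15 in the hSRY-ON lungs. All hSRY-ON lungs were above all hSRY-OFF lungs, and the level rose by 0.69 (SE 0.15, adjusted p = 0.0175). These levels lie near background, and without background correction the change was 0.21 with an adjusted p of 0.0785. The call was also lost without hSRY-OFF replicate 1 (adjusted p = 0.0750) and without hSRY-OFF replicate 3 (0.0645).

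The 3 probes of Chd4, the main ATPase of NuRD, had changes of -0.28, -0.39 and -0.40 (adjusted p = 0.174, 0.292 and 0.249), and those of Chd1, which acts in transcribed genes, of -0.30 and -0.27 (0.0977 and 0.319). Without hSRY-ON replicate 2, Chd4 probe ILMN_2654822 passed the test with a change of -0.68 (adjusted p = 0.0448). Chd8 had a change of 0.00 (95% interval -0.33 to 0.33). The Chd6 probe was not detected on any array.

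Polycomb repressive complex 1 held changes in both directions. Of 4 tested genes, 2 fell and 1 rose, where 13.3% of all tested probes fell and 13.6% rose. Cbx7, a chromodomain protein that guides the complex to methylated histone H3, was at 6.64, 6.43 and 6.69 in the hSRY-OFF lungs and at 7.98, 8.20 and 7.45 in the hSRY-ON lungs. The lowest hSRY-ON lung, replicate 3, was above all hSRY-OFF lungs, and the level rose by 1.29 (SE 0.20, adjusted p = 0.00610), or 2.45-fold. Without background correction the change was 0.68, still past the threshold.

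Cbx2, another chromodomain subunit of the complex, was at 7.95, 7.84 and 7.73 in the hSRY-OFF lungs and at 6.87, 7.22 and 7.26 in the hSRY-ON lungs. The 2 groups were fully apart, and the level fell by 0.72 (SE 0.15, adjusted p = 0.0129), although the call was lost without hSRY-OFF replicate 1 (adjusted p = 0.0604) or 2 (0.0551). Without background correction its change was -0.40.

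Bmi1, the ring finger protein Pcgf4 that activates the ubiquitin ligase of the complex, was at 9.31, 9.30 and 9.08 in the hSRY-OFF lungs and at 8.51, 8.53 and 8.65 in the hSRY-ON lungs. All hSRY-ON lungs were lower, and the level fell by 0.67 (SE 0.12, adjusted p = 0.00931), a call kept in all 17 alternatives. Cbx8 had a change of -0.30 (adjusted p = 0.325), and the probe of Cbx6 was not detected on any array.

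In Polycomb repressive complex 2, 1 of 4 tested genes fell, where 13.3% of all tested probes did. Ezh2, the histone H3 methyltransferase of the complex, was at 10.05, 9.80 and 9.41 in the hSRY-OFF lungs and at 8.35, 8.89 and 8.70 in the hSRY-ON lungs (probe ILMN_1234171). All hSRY-ON lungs were lower than all hSRY-OFF lungs, and the level fell by 1.11 (SE 0.21, adjusted p = 0.0106), being 2.15-fold higher in hSRY-OFF. Its adjusted p was between 0.0171 and 0.0480 in the 6 fits without 1 array. The 2 other Ezh2 probes were not tested, 1 being detected on no array and 1 on a single hSRY-ON array.

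The partners of Ezh2 in the complex did not pass the test. Suz12, a core scaffold, was at 11.57, 11.54 and 11.51 in the hSRY-OFF lungs and at 11.31, 11.50 and 11.56 in the hSRY-ON lungs, which overlapped. Its change was -0.08 (95% interval -0.36 to 0.20, adjusted p = 0.630). Eed, which binds the methylated histone, was at 5.71, 5.18 and 5.99 against 6.36, 5.46 and 4.66, values near background that overlapped widely (change -0.13, 95% interval -1.12 to 0.86). Ezh1, the alternative methyltransferase more common in resting cells, was at 6.55, 5.90 and 5.64 against 6.24, 6.39 and 6.51, with overlap and a change of 0.35 (SE 0.23, adjusted p = 0.302).

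The promoters of Ezh2 and Cbx7, the Polycomb genes with the largest changes in each direction, are shown with capitals on each E2F word, CCAAT box and GC box on either strand. They are from RefSeq, build GRCm38.p6, read 5′ to 3′ on the minus strand, at chr6:47594981-47595280 for Ezh2 and chr15:79932597-79932896 for Cbx7. The Ezh2 window holds 1 E2F word, 3 CCAAT boxes and no GC box, and the Cbx7 window 1 CCAAT box and 1 GC box.
Ezh2: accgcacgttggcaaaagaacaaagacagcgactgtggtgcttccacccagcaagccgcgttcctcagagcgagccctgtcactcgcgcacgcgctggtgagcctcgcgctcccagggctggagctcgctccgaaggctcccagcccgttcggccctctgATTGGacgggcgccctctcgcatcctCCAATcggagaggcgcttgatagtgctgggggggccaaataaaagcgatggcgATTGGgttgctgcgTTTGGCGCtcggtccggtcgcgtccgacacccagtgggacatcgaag
Cbx7: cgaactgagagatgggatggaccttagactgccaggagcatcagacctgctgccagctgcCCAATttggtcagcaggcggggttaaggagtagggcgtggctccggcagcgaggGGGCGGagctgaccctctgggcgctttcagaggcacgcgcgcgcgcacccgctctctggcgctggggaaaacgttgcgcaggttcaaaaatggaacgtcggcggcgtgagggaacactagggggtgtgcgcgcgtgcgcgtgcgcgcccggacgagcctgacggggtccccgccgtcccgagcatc

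A RefSeq promoter was available for 53 of the 60 chromatin genes. A GC box was found in 45 of them (84.9%), against 38.2% of the 27025 genes with a promoter in the table, and a CCAAT box in 26 (49.1% against 41.1%). An E2F word was found in 5 (9.43%, against 2.6%). Of the genes with a promoter in the table, Ezh2 was the 1 of 10 that fell to hold an E2F word, and 0 of the 4 that rose held it. The word also stood in 2 of 28 tested genes without a call and in 2 of 11 genes that were not tested. GC boxes stood in 8 of the 10 that fell, in all 4 that rose and in 24 of 28 tested genes without a call. These letters describe the windows and were not measured as binding sites.

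HP1 alpha, the product of Cbx5 and a reader of heterochromatin, was measured by 1 tested probe. Cbx5 was at 8.82, 8.41 and 8.44 in the hSRY-OFF lungs and at 7.41, 7.67 and 7.71 in the hSRY-ON lungs. Every hSRY-OFF lung was above every hSRY-ON lung, and the level fell by 0.96 (SE 0.16, adjusted p = 0.00692), being 1.95-fold higher in hSRY-OFF. The call was kept in all 17 alternatives, with a change of -0.63 without background correction. The other Cbx5 probe and that of Cbx3, or HP1 gamma, were not detected on any array.

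High mobility group genes moved in both directions, with 3 of 9 tested probes lower and 1 higher. The shares over all tested probes were 13.3% lower and 13.6% higher. Hmgn2, a nucleosome-binding protein that loosens chromatin, was at 12.91, 12.70 and 12.85 in the hSRY-OFF lungs and at 11.97, 11.31 and 12.01 in the hSRY-ON lungs. The hSRY-OFF lungs were close together and all higher, and the level fell by 1.05 (SE 0.20, adjusted p = 0.0115). Without hSRY-OFF replicate 1 the adjusted p was 0.0510. Hmgn2 and its relatives have many processed copies in the mouse genome, and cross-hybridisation to them was not tested.

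Hmgb2, a DNA-bending protein abundant in dividing cells, was at 11.46, 11.22 and 11.10 in the hSRY-OFF lungs and at 9.99, 10.19 and 10.93 in the hSRY-ON lungs. The groups did not overlap, but hSRY-ON replicate 3 came close to the hSRY-OFF lungs. For the list of dividing cells that array was also the highest of its group, at 9.16, with the lowest hSRY-OFF lung at 9.65. The level fell by 0.89 (SE 0.25, adjusted p = 0.0384), and without hSRY-ON replicate 3 by 1.17 (adjusted p = 0.00439). In each of the fits without 1 of the other 5 arrays the call was lost, with adjusted p-values from 0.0667 to 0.128.

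Hmga1, an architectural protein that binds AT-rich DNA, was at 10.55, 10.55 and 10.36 in the hSRY-OFF lungs and at 10.94, 11.41 and 11.35 in the hSRY-ON lungs (probe ILMN_2715802). All hSRY-ON lungs were higher, and the level rose by 0.75 (SE 0.16, adjusted p = 0.0148), while the other tested Hmga1 probe had a change of 0.27 (adjusted p = 0.261). The call was lost without any 1 of the hSRY-OFF arrays, with adjusted p-values of 0.0533, 0.0533 and 0.0569.

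Hmgb2l1, an HMG-box gene now named Hmgxb4, was at 7.59, 7.64 and 7.58 in the hSRY-OFF lungs and at 7.16, 6.58 and 7.12 in the hSRY-ON lungs (probe ILMN_2795395). No hSRY-ON lung reached the hSRY-OFF range, and the level fell by 0.65 (SE 0.17, adjusted p = 0.0333), with a change of -0.34 without background correction. Its other tested probe had a change of -0.37 (adjusted p = 0.0630, or 0.0454 without hSRY-ON replicate 1). Without hSRY-OFF replicates 1, 2 and 3 the adjusted p of the first probe was 0.0996, 0.111 and 0.0867. Hmgn1 (-0.32, adjusted p = 0.119, or 0.0449 without hSRY-ON replicate 3) and both probes of Hmgn3 (0.22 and 0.19) did not pass the test, and Hmga2, Hmgb1, Hmgb3 and Hmgb4 had no tested probe.

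Among the genes of de novo DNA methylation, both tested probes of Dnmt3l fell. Dnmt3l, a cofactor without enzyme activity that is best known from germ cells, was at 6.41, 6.04 and 6.48 in the hSRY-OFF lungs and at 5.18, 4.66 and 5.40 in the hSRY-ON lungs (probe ILMN_1250149). Its other probe was at 6.29, 6.08 and 6.10 against 5.68, 5.09 and 4.95. Neither probe showed overlap between the groups, and each was detected on all 3 hSRY-OFF arrays and on 1 hSRY-ON array.

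The Dnmt3l probes fell by 1.23 (SE 0.22, adjusted p = 0.00865) and by 0.91 (SE 0.20, adjusted p = 0.0183) on the log2 scale. Values so near background depend on its correction, and without it the changes were -0.38 and -0.27, with both calls kept. The call of probe ILMN_1250149 was kept in all 16 alternatives that tested it. That of probe ILMN_3112268 was lost without any 1 of the hSRY-OFF arrays (adjusted p = 0.0752, 0.0603 and 0.0544) and without hSRY-ON replicate 2 (0.0590).

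The methyltransferase Dnmt3b was at 9.34, 9.16 and 9.19 in the hSRY-OFF lungs and at 8.77, 8.94 and 9.08 in the hSRY-ON lungs, without overlap. Its change of -0.30 (SE 0.13) did not pass the test (adjusted p = 0.125). The 2 probes of Dnmt3a and the 2 of Hells, a remodeller that aids DNA methylation, were not detected on any array. Their log2 values lay between 4.44 and 4.81 for Dnmt3a and between 4.50 and 4.93 for Hells. Tet1 was not analysed here. Ctcf, the insulator protein that anchors chromatin loops, was at 9.58, 9.53 and 9.73 in the hSRY-OFF lungs and at 9.41, 9.39 and 9.50 in the hSRY-ON lungs. The groups did not overlap, and the change of -0.18 (95% interval -0.46 to 0.09) had an adjusted p of 0.271.

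**Figure D4:**
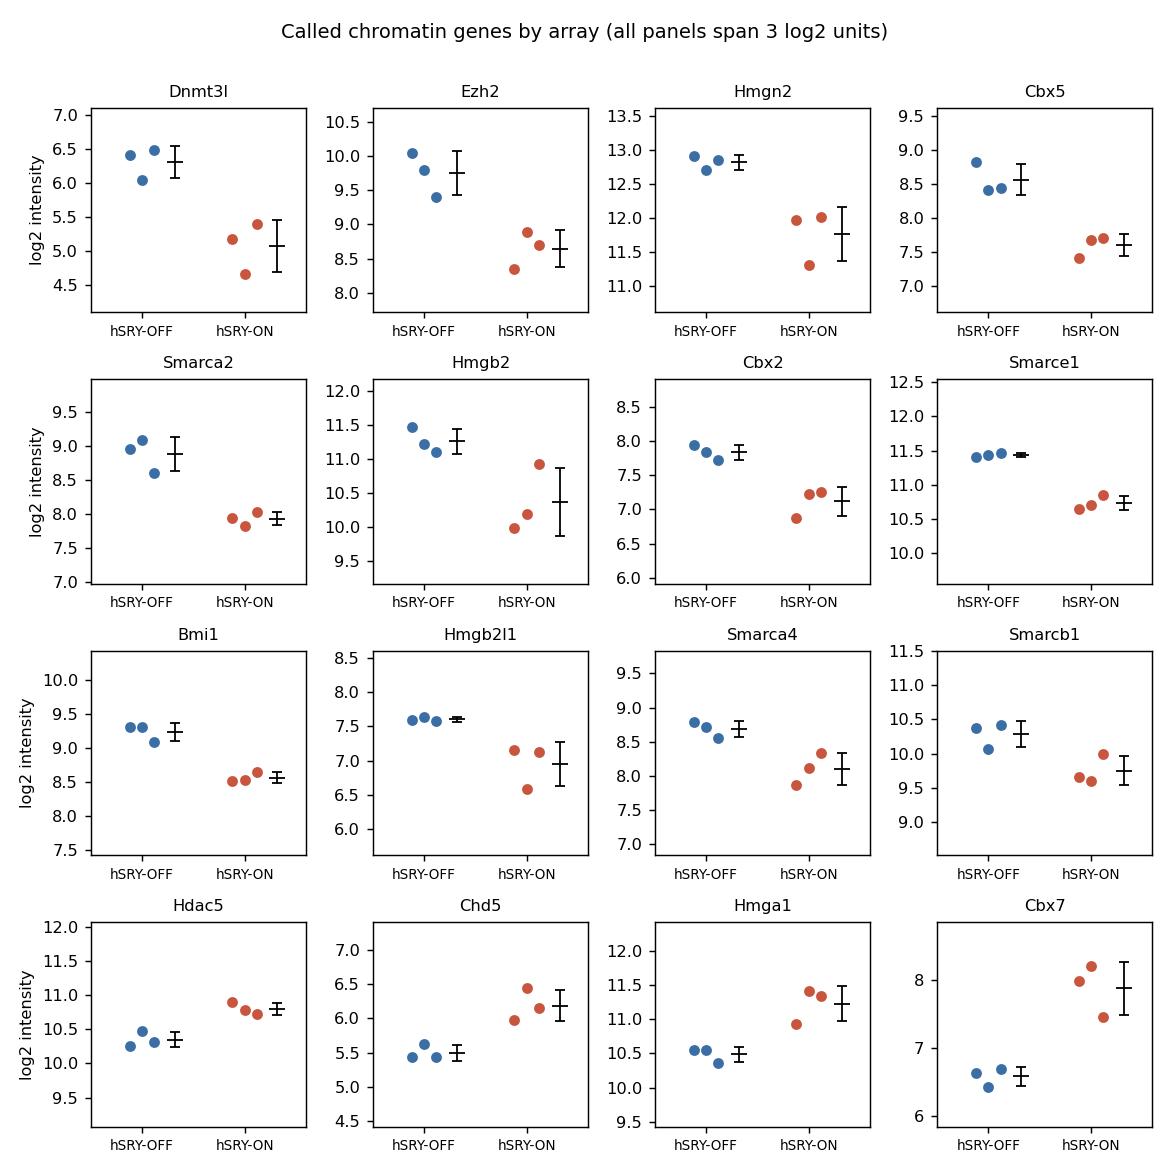
Log2 intensity (vertical axis, every panel spanning 3 log2 units) of the 16 chromatin genes with a call, 1 probe each, in the 3 hSRY-OFF and 3 hSRY-ON lungs (horizontal axis), with points for arrays and bars for the mean and SD. The points of the 2 groups do not overlap in any panel, which the choice of called probes favours. Of all tested probes, called or not, 46.6% had no overlap. Hmgb2 shows 1 hSRY-ON lung at 10.93 near the hSRY-OFF lungs, and Hdac5, Chd5, Hmga1 and Cbx7 are the 4 genes that rose.

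Of 100 other genes of the same complexes and pathways, 73 were tested, and 8 fell and 3 rose, with a median change of -0.19. Over all tested probes the shares were 13.3% and 13.6%, so these counts do not stand above the background. The number that fell was 4, 4 and 6 without hSRY-OFF replicates 1, 2 and 3 and 10, 6 and 11 without hSRY-ON replicates 1, 2 and 3. The number that rose was 0, 0 and 2 and then 3 each. How the counts over all tested probes moved in these fits is described above, after those of the chromatin probes. The SWI/SNF partners had no call by limma among 6 tested genes and a median change of -0.11, and no gene of the ISWI partners (6 tested) or of cohesin (5 tested) was called. At an unadjusted p under 0.05 these lists held 0, 2 and 0 genes. Among Polycomb partners, the histone-binding Rbbp7 fell by 0.60 (adjusted p = 0.0198) and the ring finger gene Pcgf5 rose by 0.61 (0.0144). Mta3, a NuRD subunit, rose by 0.58 (adjusted p = 0.0117).

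Uhrf1 and Dnmt1, which copy DNA methylation onto new strands at replication, had lower levels in hSRY-ON lungs. Uhrf1 was at 9.42, 9.27 and 9.47 in the hSRY-OFF lungs and at 7.57, 6.74 and 8.13 in the hSRY-ON lungs. It fell by 1.91 (SE 0.32, adjusted p = 0.00752), more than any of the 62 chromatin probes, and the groups did not overlap. Dnmt1 was at 9.20, 9.22 and 9.13 against 8.43, 8.03 and 8.50, also without overlap, and fell by 0.86 (SE 0.15, adjusted p = 0.00863).

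Mbd1, a reader of methylated DNA, rose by 1.09 (SE 0.27, adjusted p = 0.0261). The histone chaperones Chaf1a and Asf1b, which deposit histones on newly copied DNA, fell by 0.97 (adjusted p = 0.0322) and 0.98 (0.0223). Both are best known from dividing cells, and the levels of that marker list on the same arrays are given above. A link between that list and these falls was not tested. The remodeller Atrx fell by 0.90 (adjusted p = 0.00397), the acetyltransferase Kat2a by 0.73 (0.00501) and the corepressor Trim28 by 0.43 (0.0489).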

How the data were processed

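Groups, replicate numbers, strain, age and sex were taken from the sample labels. The authors deposited an unnormalized table with a bead intensity and a detection p-value for each probe and array, the latter being the chance of such a signal among negative control probes. The submitters' processing notes name limma, while the study's methods name TCC, which is made for counts, and these intensities were therefore fitted with limma (3.58.1, R 4.3.3). Intensities were background-corrected with normexp from the detection p-values (offset 16), quantile-normalized and put on the log2 scale. The offset compresses changes of dim probes, and quantile normalization removes any shift shared by all probes. The filter kept probes whose detection p was below 0.05 for 3 or more of the 6 arrays, and lmFit and eBayes compared the groups, without covariates, with Benjamini-Hochberg adjustment over all 13841 kept probes. A probe was called at an adjusted p under 0.05. Probes of 1 gene were kept apart. For the other pathway genes and marker lists, the kept probe of highest mean stood for a gene. Of 195 list genes, 168 matched by symbol and 11 by a synonym of 1 gene in RefSeq (GRCm38.p6). With 3 arrays a group, an exact permutation test of 1 probe cannot go below 0.1. The table held 0 value columns of no sample.

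The rule for values by array named up to 4 called genes per role, with the probe of largest change, and Hells, Ezh1, Ezh2, Suz12, Eed, Bmi1, Tet1, Ctcf, Hdac1, Hdac2, Hdac3, Sirt1, Smarca4 and Dnmt3a. Of these, Hells and Dnmt3a were undetected and are given by their range, and Tet1 and Hdac1 were not analysed here. Other values by array were chosen after they were seen. A gene that the rule takes is not reported here. The genes and lists were chosen with earlier results of these data known. The study describes its arrays as biological triplicates. The pipeline was tested on simulated data. Other corrections, normalizations, filters, variance models, the replicate number as a block and fits without 1 array were run as alternatives (17 in all). Promoter windows and motif words were read from RefSeq with Python 3.11.15.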

Additional observations from a re-analysis of the deposited data

How the results depend on the processing

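The counts of calls moved with the threshold and with single arrays. Without 1 array, 6 to 17 chromatin probes fell (15 with all arrays) and 1 to 4 rose (4 with all arrays). At an adjusted p under 0.01, 5 fell and 1 rose. With the replicate number as a block, 9 fell and 3 rose. The replicate numbers were taken to name samples only. Deviations of same-numbered arrays correlated at -0.11, 0.10 and -0.09, and those of differently numbered arrays at -0.09 to 0.16. With 3 arrays a group, these values cannot tell whether the numbers carry a pairing. A call lost under the replicate block is not a smaller change. Under the other settings 12 to 18 chromatin probes fell and 3 or 4 rose. No call reversed, and 6 of the 19 called probes kept their call in every alternative that tested them, those of Bmi1, Cbx5, Cbx7, Dnmt3l (ILMN_1250149), Smarca2 (ILMN_3075712) and Smarce1 (ILMN_2610600). Of the 43 uncalled probes, 8 gained a call in some alternative. Of the other pathway genes, 13 fell without background correction, 13 with robust, trended variances, 4 at an adjusted p under 0.01 and 4 to 11 without 1 array, against 8. The number that rose was 0 at an adjusted p under 0.01 and 0 to 3 without 1 array, against 3. The causes were not tested.

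The sign turned for 6 uncalled probes with changes near 0 or values near background. Chd8 was at 0.04 under median normalization, cyclic loess and array weights, and at -0.08 to 0.08 without 1 array. Hdac10 was at -0.02 under median normalization and at -0.05 to 0.21 without 1 array. Suz12 was at 0.00 under median normalization and Smarcc2 at 0.02 under cyclic loess. Without 1 array, Smarcc2 ran from -0.05 to 0.02, Eed from -0.57 to 0.28 and Hdac4 from -0.01 to 0.26. Probes near background are limited by its correction, and those of Eed, Dnmt3l, Hdac6 and Smarcd1 were not kept by every filter.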
